A study of Mus musculus with 3 samples.

Results

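The genes described here are 10 components of FGF-ERK signalling and its negative feedback, namely the ligand gene Fgf4, the receptor genes Fgfr1 and Fgfr2, the Sprouty genes Spry1, Spry2 and Spry4, the MAP kinase phosphatase genes Dusp4 and Dusp6, and the ETS factor genes Etv4 and Etv5. They were chosen by name, as known parts of the pathway, and by no rule on their values in these samples. Earlier results of these data were known by then. All 10 were among the 32545 rows of the expression table, and all 10 were among the 19950 genes whose mean over the 3 samples was at least 0.5 TPM, the unit of the table, in which read counts are divided by transcript length and each column is scaled to the same total.

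The samples were RNA-seq libraries of E3 cells, an embryonic stem cell (ESC) line derived from C57BL/6 × 129S6 mouse blastocysts, taken at passage 7. E3 cells were grown on mouse embryonic fibroblast feeders in medium with serum and leukaemia inhibitory factor (LIF), and all groups share these conditions. KD4 and KD9 are 2 stable knockdown lines, each grown from a single clone, that carry a short hairpin RNA against a region common to the Usp17l family of deubiquitinases. Transfected clones were selected with puromycin, and the control cells carry the empty vector. The lines and the control have 1 labelled sample each, so both knockdown lines make up the knockdown group and the control group is a single sample. The table held 2 columns for each line, which were averaged and counted as 1 replicate. Fold changes were taken from log2(TPM + 0.1), and for genes of low level the added 0.1 makes them too small.

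In mouse ESCs, FGF4 secreted by the cells themselves binds FGF receptors on the same and neighbouring cells and activates RAS, RAF, MEK and ERK. The pathway is known for driving cells out of the naive state and, in the blastocyst, for turning inner cell mass cells towards primitive endoderm. Active ERK also switches on its own brakes, among them the Sprouty proteins, which act upstream in the cascade, and the dual specificity phosphatases, which remove phosphate from ERK itself. Etv4 and Etv5 encode transcription factors of the ETS family that are widely used as readouts of FGF signalling.

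Promoter sequence from RefSeq on GRCm38.p6, the assembly that mm10 denotes, was at hand for 6 of the 10 genes: Fgf4, Fgfr2, Spry1, Spry2, Dusp6 and Etv5. Fgfr1, Spry4, Dusp4 and Etv4 had no entry. The 250 bases before the start are shown for the ligand gene Fgf4 and the ETS factor gene Etv5, both higher in the 4 knockdown columns than in the control column, for Spry2, which was also higher in all 4, and for Dusp6, which was lower in all 4. Capitals mark every GC box (GGGCGG) and every CCAAT box (CCAAT), on either strand, so that ATTGG is the CCAAT box of the other strand. The windows are chr7:144861136-144861385 on the plus strand for Fgf4, chr16:22439571-22439820 on the minus strand for the outer of the 2 starts of Etv5, chr14:105896820-105897069 on the minus strand for Spry2, and chr10:99262981-99263230 on the plus strand for Dusp6.
Fgf4: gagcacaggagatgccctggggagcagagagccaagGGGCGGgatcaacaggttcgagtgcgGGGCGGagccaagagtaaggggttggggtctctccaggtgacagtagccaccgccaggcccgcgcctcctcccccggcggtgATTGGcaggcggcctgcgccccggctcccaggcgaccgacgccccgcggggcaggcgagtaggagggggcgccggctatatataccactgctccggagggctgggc
Etv5: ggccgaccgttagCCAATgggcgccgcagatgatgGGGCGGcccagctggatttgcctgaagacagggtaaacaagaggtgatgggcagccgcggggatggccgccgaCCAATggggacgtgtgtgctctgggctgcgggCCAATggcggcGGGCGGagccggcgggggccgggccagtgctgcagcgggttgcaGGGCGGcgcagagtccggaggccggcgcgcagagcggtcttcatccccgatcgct
Spry2: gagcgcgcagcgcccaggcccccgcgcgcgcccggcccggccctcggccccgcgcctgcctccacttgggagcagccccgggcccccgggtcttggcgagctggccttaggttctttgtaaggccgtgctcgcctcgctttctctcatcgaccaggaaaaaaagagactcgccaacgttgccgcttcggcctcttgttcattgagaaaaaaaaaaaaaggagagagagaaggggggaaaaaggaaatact
Dusp6: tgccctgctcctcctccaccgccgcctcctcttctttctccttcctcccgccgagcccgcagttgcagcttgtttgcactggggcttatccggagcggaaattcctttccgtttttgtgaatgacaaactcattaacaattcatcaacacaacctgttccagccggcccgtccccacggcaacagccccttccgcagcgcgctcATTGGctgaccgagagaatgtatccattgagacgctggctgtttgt
The Fgf4 window held 2 GC boxes and 1 CCAAT box, and its G and C content was 71.2%. The Etv5 window held 3 of each, at the same content of 71.2%. The Dusp6 window held 1 CCAAT box, and the Spry2 window held neither motif. A GC box was found in 32.7% and a CCAAT box in 33.8% of 32851 promoter windows of this length. The ETS motif CCGGAA, found on either strand in 12% of the windows, was not among the letters of the 6 genes' windows. No motif overlapped another. These matches describe the sequence only.

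Some measurements on the samples as a whole bear on every fold change below. The knockdown target genes Usp17la to Usp17le had summed levels of 0.591 to 0.651 TPM in KD4 and 0.683 to 1.51 TPM in KD9, against 4.66 TPM in the control. The summed level of 12 ESC markers was 5010 and 5107 TPM in KD4 and 3286 to 3297 TPM in KD9, against 3355 TPM in the control, so the labelled cell type was present in every column. The summed level of 20 fibroblast markers was 3099 and 3132 TPM in KD4 and 6229 to 6368 TPM in KD9, against 7964 TPM in the control, and none of the 20 was at 0 in any column. The part of these markers in the results below was not tested. In such bulk samples, fewer cells of a type and less RNA per cell cannot be told apart.

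Across the 10 genes, KD4 had Fgf4 over 2-fold above and Fgfr1 over 2-fold below the control, and KD9 had no gene past 2-fold in either direction. Among all 19950 genes, 5.18% passed 2-fold upwards in KD4 and 9.5% downwards. In KD9, 4.21% passed it upwards and 5.45% downwards. None of the 10 passed 2-fold in both lines, where 2.47% of all genes were higher and 3.2% lower. The 4 knockdown columns all lay above the control column for 5 genes, Fgf4, Spry2, Spry4, Etv4 and Etv5, a pattern shown by 20.5% of all genes, although Spry2 and Etv4 lay below it in KD4 once levels were rescaled by ESC markers. They all lay below it for Fgfr1 and Dusp6, a pattern shown by 30.1% of all genes. Medians of log2 fold change over the 10 genes were 0.31 (KD4) and 0.05 (KD9), beside -0.02 (KD4) and -0.06 (KD9) over all genes tested.

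**Figure D1:**
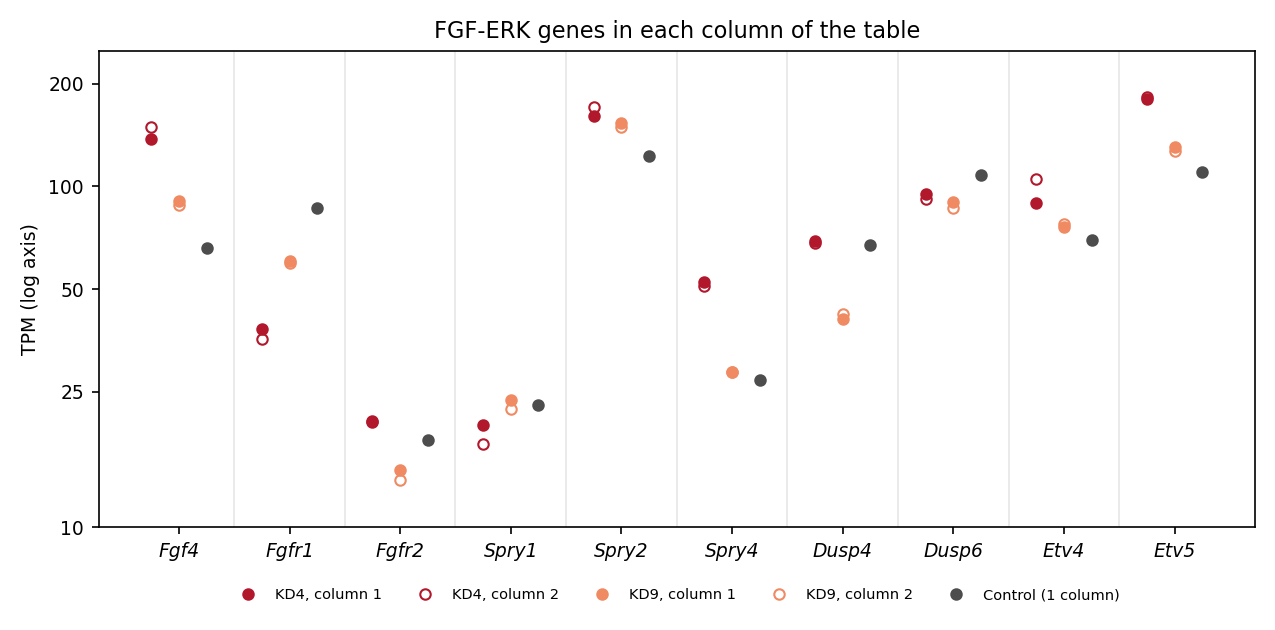
Level of each FGF-ERK gene in TPM on a log axis, with 1 point for each column of the table: filled and open points are the first and second columns of KD4 and of KD9, and the grey point is the control. Fgf4 sits at 138 and 150 TPM in KD4 and 88.3 and 90.5 TPM in KD9, above the control at 66.1 TPM, and Fgfr1 lies the other way round.

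The plot of levels by column shows that the difference from the control was larger than the gap between the columns of a line for all 10 genes in KD4 and for 9 in KD9, where Spry1 was the exception. This gap ranged over the 10 genes from 0.0045 to 0.23 on the log2 scale, with a median of 0.04. Dusp4 in KD4 passed its gap narrowly, at 0.023 against 0.018. The share of all genes that do so was not counted. The labels do not say whether the columns of a line came from separate cultures, so the gap may be technical.

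Fgf4 encodes the FGF that ESCs themselves make and lies on chromosome 7 at 144861386-144865245. Its level was 138 and 150 TPM in KD4 and 90.5 and 88.3 TPM in KD9, against 66.1 TPM in the control. The columns of KD4, KD9 and the control did not overlap, and KD4 was the highest. KD4 was 2.17-fold above the control, a log2 fold change of 1.12, and KD9 was 1.35-fold above it, one of 0.44. Fgf4 is a textbook target of the pluripotency factors OCT4 (Pou5f1) and SOX2. Per unit of Pou5f1, its level was 0.134 and 0.141 in KD4 and 0.132 and 0.127 in KD9, against 0.0946 in the control. Per unit of Sox2, it was 0.309 and 0.285 in KD4 and 0.274 and 0.262 in KD9, against 0.223 in the control. The KD4 and KD9 columns therefore lay closer to each other in these ratios than in TPM, and both lines stayed above the control. Over 12949 genes with a mean of at least 5 TPM, the fold changes in the 4 knockdown columns were nearest to those of Fgf4 for Patl2, Syk and Sigirr, at Euclidean distances of 0.0642, 0.0714 and 0.111 on the log2 scale, and 50 genes lay within 0.3.

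The receptors bind FGF together with heparan sulphate and carry its signal through their tyrosine kinase domains. Fgfr1, on chromosome 8 at 25518759-25575718, was at 38.1 and 35.7 TPM in KD4 and 60.6 and 59.7 TPM in KD9, against 86.6 TPM in the control. It was lowest in KD4 and highest in the control, with no overlap between the groups, and on the log2 scale KD4 was at -1.23 and KD9 at -0.52 relative to the control. Fibroblasts also express Fgfr1, and its share from feeders was not tested. All 20 fibroblast markers were lower than the control in KD4. In KD9, 13 were lower and 7 higher, among them Dcn and Lum by over 2-fold, so the order of Fgfr1, with KD9 between KD4 and the control, was that of the summed markers but not of each marker. Fgfr2, on chromosome 7 at 130162451-130266808, encodes the receptor that primitive endoderm cells are known for. Its level was 20.5 and 20.4 TPM in KD4 and 14.7 and 13.8 TPM in KD9, against 18.02 TPM in the control. KD4 lay above the control and KD9 below it, by 0.18 and -0.34 on the log2 scale. The ratio of Fgfr1 to Fgfr2 within a column was 1.86 and 1.75 in KD4 and 4.12 and 4.33 in KD9, against 4.80 in the control. Fgfr1 was thus the more abundant of the pair in every column, by the smallest margin in KD4.

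The Sprouty proteins are feedback inhibitors that act between receptor and RAF. Spry2, on chromosome 14 at 105891947-105896819, was the most abundant of the 3, at 161 and 171 TPM in KD4 and 153 and 150 TPM in KD9, against 123 TPM in the control. All 4 knockdown columns were above the control, by 0.43 in KD4 and 0.30 in KD9 on the log2 scale, and after the ESC rescaling given further on KD4 was at -0.24. Spry4, another inhibitor of the family, was at 52.3 and 51.2 TPM in KD4 and 28.5 and 28.6 TPM in KD9, against 27.0 TPM in the control. KD4 stood apart at 1.91-fold, or 0.93 on the log2 scale, while KD9 differed from the control by 0.08. Spry1, on chromosome 3 at 37639947-37644599, was at 20.0 and 17.6 TPM in KD4 and 23.7 and 22.3 TPM in KD9, against 22.8 TPM in the control. KD4 was lower, at -0.28 on the log2 scale, and the KD9 columns lay on either side of the control. The ratio of Spry2 to Spry4 was 3.07 and 3.35 in KD4 and 5.37 and 5.23 in KD9, against 4.56 in the control, so the ratio in KD4 lay below the control and that in KD9 above it.

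Dusp6 and Dusp4 encode dual specificity phosphatases, the DUSP6 protein being cytoplasmic and selective for ERK and the DUSP4 protein nuclear. Dusp6, on chromosome 10 at 99263231-99267489, was at 94.9 and 91.9 TPM in KD4 and 89.7 and 86.5 TPM in KD9, against 108 TPM in the control. Both lines were lower by a similar amount, -0.21 in KD4 and -0.29 in KD9 on the log2 scale. Small shifts of this kind were common, since 1498 of 12949 genes had fold changes in the 4 knockdown columns within a Euclidean distance of 0.3 of those of Dusp6, the nearest being Gbf1, Zfp91 and Nif3l1. Dusp4, on chromosome 8 at 34807610-34819894, was at 69.0 and 68.1 TPM in KD4 and 41.0 and 42.3 TPM in KD9, against 67.5 TPM in the control. KD4 differed from the control by 0.02 on the log2 scale, and KD9 was lower, at -0.69. The ratio of Dusp6 to Dusp4 was 1.38 and 1.35 in KD4 and 2.19 and 2.04 in KD9, against 1.60 in the control.

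Etv5 and Etv4 encode related ETS transcription factors. Etv5, on chromosome 16 at 22381313-22439570, was at 180 and 183 TPM in KD4 and 130 and 127 TPM in KD9, against 110 TPM in the control. The groups did not overlap, and KD4 was 1.64-fold above the control (0.72 on the log2 scale) and KD9 1.17-fold (0.22). Etv4, on chromosome 11 at 101769747-101785310, was at 89.6 and 105 TPM in KD4 and 76.3 and 77.7 TPM in KD9, against 69.6 TPM in the control. It had the same order as Etv5 with smaller differences from the control, 0.48 in KD4 and 0.14 in KD9 on the log2 scale, and the widest gap between the columns of a line among the 10 genes, 0.23 in KD4. The ratio of Etv5 to Etv4 was 2.01 and 1.73 in KD4 and 1.71 and 1.64 in KD9, against 1.58 in the control, and here the columns of KD4 were further apart than KD9 was from the control.

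**Figure D2:**
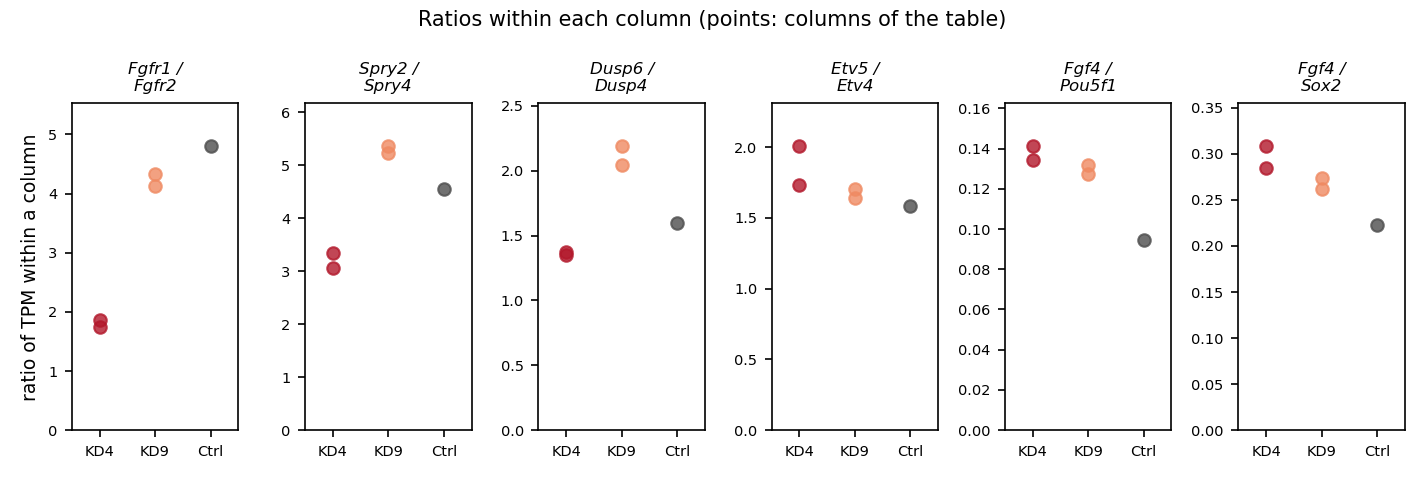
Ratio of TPM between a pair of genes within each column, on linear axes that start at 0, with 1 point for each column of KD4, KD9 and the control (Ctrl). The Fgfr1 to Fgfr2 ratio is 1.75 to 1.86 in KD4 and 4.12 to 4.33 in KD9, against 4.80 in the control, and Fgf4 per Pou5f1 and per Sox2 is above the control in both lines.

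The plot of ratios within a column does not depend on how the samples were scaled against each other, and it separates KD4 from KD9 most widely for Fgfr1 over Fgfr2.

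The order of the levels also differed between the groups. KD4 ran, from high to low, Etv5, Spry2, Fgf4, Etv4, Dusp6, Dusp4, Spry4, Fgfr1, Fgfr2 and Spry1, and the columns of Etv4 and Dusp6 overlapped. KD9 ran Spry2, Etv5, Fgf4, Dusp6, Etv4, Fgfr1, Dusp4, Spry4, Spry1 and Fgfr2, and the columns of Fgf4 and Dusp6 overlapped. The control, of which only 1 column was used, so that no spread is given, ran Spry2, Etv5, Dusp6, Fgfr1, Etv4, Dusp4, Fgf4, Spry4, Spry1 and Fgfr2. Etv4, Dusp4 and Fgf4 lay close together there at 69.6, 67.5 and 66.1 TPM. The ligand gene Fgf4 thus came after Spry2 and Etv5 alone in both knockdown lines and after 6 genes in the control. The 10 genes together summed to 863 and 894 TPM in KD4 and 708 and 696 TPM in KD9, against 699 TPM in the control.

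The knockdown lines differed from each other as well as from the control. Both KD4 columns were above both KD9 columns for 8 of the 10 genes, a pattern shown by 38.5% of all genes, and below them for Fgfr1 and Spry1, a pattern shown by 29.9% of all genes. This held in TPM and depended on the scaling. After the ESC rescaling given further on, KD4 was above KD9 for Spry4 (0.27 against 0.11) and Dusp4 (-0.64 against -0.66) only. The widest differences of log2 fold change, KD4 minus KD9, were 0.85 for Spry4, 0.72 for Dusp4, -0.70 for Fgfr1 and 0.68 for Fgf4. In TPM, Fgfr2 and Dusp4 were higher than the control in KD4 and lower in KD9, and Spry1 was the reverse. After the ESC rescaling, Fgfr2 and Dusp4 were below the control in both lines. With 1 sample per line, these differences have no replicate check.

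The 12 ESC markers had a median log2 fold change over the control of 0.67 in KD4 and -0.03 in KD9. When the TPM of each line were divided by that factor, the median of all genes moved to -0.68 in KD4 and -0.03 in KD9, and 3 of the 10 genes, Fgf4, Spry4 and Etv5, remained above the control in KD4, against 6 in KD9. Fgf4 was then 0.45 above the control in KD4 and 0.47 above it in KD9 on the log2 scale, so its gap between the lines in TPM was no longer seen. Fgfr1 had -1.89 in KD4 and -0.49 in KD9. Fgfr2, Spry2, Dusp4 and Etv4 were below the control in KD4 on this scale, at -0.48, -0.24, -0.64 and -0.18, although they were above it in TPM. Spry4 had 0.27 and Etv5 0.05 in KD4, and Dusp6 had -0.88. Relative to the median of all genes, which the rescaling shifts by the same factor as the 10, the median of the 10 lay 0.33 higher in KD4 and 0.10 higher in KD9 in TPM. The ESC markers themselves disagreed, with 11 of 12 above the control in KD4 and 5 in KD9. They ran from Zfp42 (1.24 in KD4, 0.81 in KD9) to Lin28a (-0.80 in KD4, -1.26 in KD9). They include Pou5f1 and Sox2, and the paper reports pluripotency genes as upregulated after the knockdown. The rescaling would also divide out such a change, which was not tested.

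**Figure D3:**
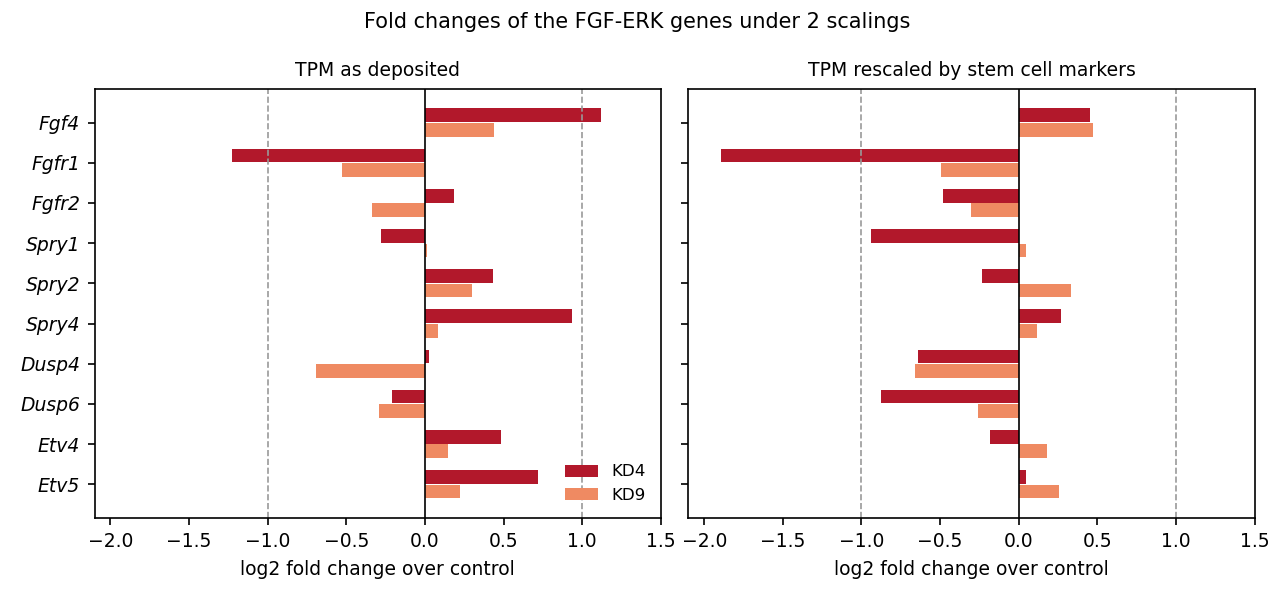
Log2 fold change over the control of each FGF-ERK gene in KD4 (dark bars) and KD9 (light bars), from TPM as deposited (left) and after dividing each line by its ESC marker factor (right), with dashed lines at 2-fold. Fgf4 in KD4 is past 2-fold in TPM at 1.12 and at 0.45 after rescaling, and Fgfr1 in KD4 is past it on both scales, at -1.23 and -1.89.

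The bars of log2 fold changes under both scalings show Fgf4, Spry4 and Etv5 above the control in each panel and each line, and Fgfr1 and Dusp6 below it in each.

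Both knockdown lines were also set against the control in limma, which moderates the spread of each gene and assumes that the single control varies like the lines. The log2 fold change of Fgf4 was 0.78 (SE 0.37) and that of Fgfr1 was -0.88 (SE 0.38), both with an adjusted p of 0.9996 in limma after Benjamini-Hochberg adjustment. The other 8 genes had log2 fold changes of -0.34 (Dusp4) to 0.51 (Spry4) with the same adjusted p. No gene of the 10 was called, and limma called 0% of all genes higher and 0% lower, with a lowest adjusted p of 0.640. At an unadjusted p under 0.05, limma had 506 genes higher and 535 lower, none of them among the 10. With each column taken as its own library, a fit that treats the columns of a line as replicates although 1 sample per line is labelled, limma called 3.91% of all genes higher, with Fgf4, Spry2, Spry4 and Etv5 among them, and 6.94% lower, with Fgfr1 and Dusp4 among them. The adjusted p in that limma fit was 0.0181 for Fgf4, 0.0135 for Fgfr1 and 0.0181 for Spry4. KD4 and KD9 are separately picked clones, and the study's legends speak of biological replicates for knockdown cells, but the labels give 1 sample per line and do not say whether its columns came from separate cultures. The p-values therefore measure the spread between these samples or columns, which may be technical in the fit on columns.

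The other genes of the pathway were described in 5 lists. Of 15 further FGF ligand genes tested, 3 passed 2-fold downwards in both lines, beside 3.2% of all genes, and none upwards. The medians of the 15 were -0.61 (KD4) and -0.29 (KD9) on the log2 scale. The 3 had low levels. Fgf5, known as a marker of the primed state, was at 0.481 and 0.253 TPM in KD4 and 0.164 and 0.260 TPM in KD9, against 1.48 TPM in the control. Fgf8, a ligand of gastrulation and patterning, was at 0.0742 and 0.188 TPM in KD4 and 0.487 and 0.344 TPM in KD9, against 2.38 TPM in the control. Fgf15, the mouse counterpart of human FGF19, was at 0.688 and 0.953 TPM in KD4 and 0.780 and 0.851 TPM in KD9, against 3.06 TPM in the control. These ligands were picked for passing 2-fold downwards in both lines, so their place below the control followed from the choice. Fgf5 and Fgf8 were under 0.5 TPM in every knockdown column and passed the filter only through the control. Fgf7, a ligand made by fibroblasts and other mesenchymal cells, was at 25.9 and 27.7 TPM in KD4 and 63.8 and 63.5 TPM in KD9, against 32.8 TPM in the control.

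Among 10 further receptor, co-receptor and syndecan or glypican genes, 2 passed 2-fold downwards in both lines, beside 3.2% of all genes. The medians of the 10 were -0.68 (KD4) and -0.39 (KD9) on the log2 scale. Fgfr3, another FGF receptor gene, was at 0.728 and 0.584 TPM in KD4 and 0.402 and 0.429 TPM in KD9, against 1.58 TPM in the control. Klb, the gene of the co-receptor beta-klotho, was at 0.220 and 0.306 TPM in KD4 and 0.145 and 0.245 TPM in KD9, against 2.10 TPM in the control. Both genes were low in every column beside Fgfr1 and Fgfr2. They were picked for passing 2-fold downwards in both lines, so their place below the control followed from the choice. Klb was also under 0.5 TPM in every knockdown column and passed the filter only through the control.

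The 23 genes of the RAS-ERK cascade itself, from adaptors to kinases, had medians of -0.11 (KD4) and -0.22 (KD9) on the log2 scale, and none passed 2-fold in either line. Of 19 other brakes on ERK signalling, 1 passed 2-fold downwards in both lines, beside 3.2% of all genes. It was the phosphatase gene Dusp8, at 1.58 and 1.40 TPM in KD4 and 2.03 and 2.16 TPM in KD9, against 4.40 TPM in the control. Errfi1, whose product inhibits the EGF receptor, passed 2-fold upwards in KD9 and not in KD4, at 40.1 and 41.5 TPM in KD4 and 108 and 100.4 TPM in KD9, against 51.1 TPM in the control. These brakes had medians of -0.43 (KD4) and -0.18 (KD9).

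Of 20 further genes known as targets of ERK signalling, among them immediate early genes and ETS factor genes, 5 passed 2-fold downwards in KD4 and none in KD9. Among all genes, 9.5% did so in KD4 and 5.45% in KD9. The medians of the 20 were -0.48 (KD4) and -0.01 (KD9). The 5 were Egr1, Egr2, Egr3, Fos and Junb. Fos, a subunit of AP-1, was at 177 and 176 TPM in KD4 and 410 and 400.0 TPM in KD9, against 384 TPM in the control. Junb, another AP-1 subunit, was at 129 and 130.2 TPM in KD4 and 264 and 269 TPM in KD9, against 275 TPM in the control. Both were lowest in KD4, as were the summed fibroblast markers, whose part was not tested, while Etv4, Etv5 and Spry4 were highest in KD4 in TPM. No gene of the 5 lists was called by limma in the fit on the lines.

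**Figure D4:**
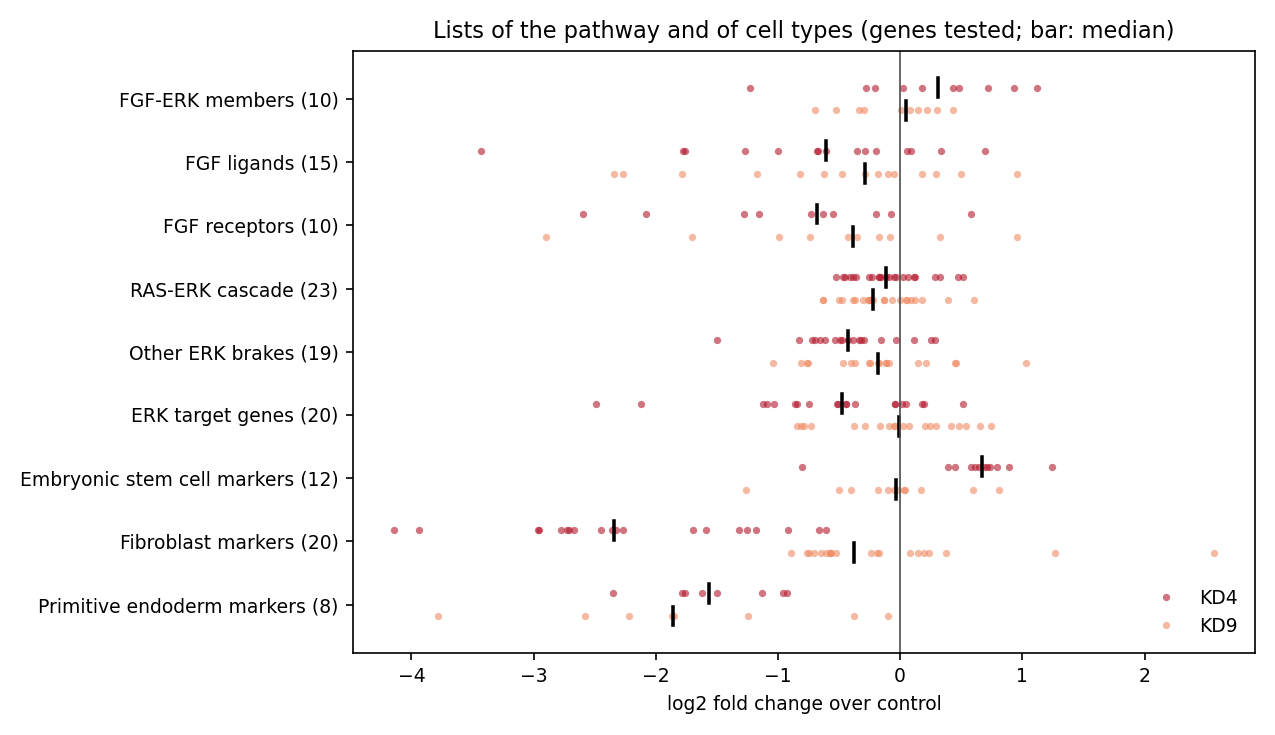
Log2 fold change over the control of each gene tested in the FGF-ERK set, the 5 lists of other pathway genes and 3 lists of cell type markers, with KD4 (dark points) above KD9 (light points) and a black bar at each median. The FGF-ERK set has medians of 0.31 in KD4 and 0.05 in KD9, while the fibroblast markers have -2.34 and -0.38 and the primitive endoderm markers -1.56 and -1.86.

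The plot of lists shows where the 10 genes lie beside the rest of the pathway and beside the cells the culture could hold. The summed level of 10 primitive endoderm markers, cells that depend on FGF signalling, was 25.8 and 25.2 TPM in KD4 and 32.1 and 31.3 TPM in KD9, against 65.1 TPM in the control. The 8 of them that were tested had medians of -1.56 (KD4) and -1.86 (KD9) on the log2 scale. For all 8 the 4 knockdown columns lay below the control, a pattern shown by 30.1% of all genes. Among the 10 FGF-ERK genes, this direction was shared by Fgfr1 and Dusp6. Of the primitive endoderm markers, Sox17 and Foxa2 were under 0.5 TPM in every knockdown column. They passed the filter only through the control, so their place below it followed from the filter.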

How the data were processed

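Per the methods, the authors used Trim Galore for trimming, HISAT2 for alignment to mm10 and featureCounts for uniquely mapped reads, and deposited TPM. Not given in the sources used here were tool versions and the annotation. For their own calls the authors worked with DESeq2 at a fold change over 2 and a P under 0.05. Since TPM does not hold the depth, the precision that depth gives is unknown and no counting interval is printed.

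KD4 and KD9 have 2 columns each for 1 labelled sample (Pearson r of 0.956 and 0.968 over the tested genes). They were averaged as 1 replicate. 1 further per-sample column, named as another control, matched no labelled sample and was not used. Of 32545 rows, 800 were 0 in every column used. Of the values, log2(TPM + 0.1) was taken over 19950 genes with a mean of at least 0.5 TPM. In single lines a fold of 2 was used as a description and nothing was tested. Both lines were set against the control in limma 3.58.1 (R 4.3.3), two-sided, with eBayes and its trend option, 1 residual and 3.01 prior degrees of freedom, and a call at a Benjamini-Hochberg adjusted p under 0.05. The procedure was tested on simulated data with 1 spread for all genes and independent columns, which these data need not have. That run was checked for the median estimates only. Tables were made with Python 3.11.15. Sequences and coordinates come from RefSeq, GRCm38.p6.

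The 10 genes, the 5 pathway lists and the 6 marker lists (ESC, fibroblast, primitive endoderm, trophectoderm, 2-cell-like cells and the knockdown target) were chosen with earlier results of these data known. Usp17le is in both of the last lists. The genes open to naming were the 10, at most 6 of each list by mean TPM together with those past 2-fold in both lines, and the 3 genes nearest to Fgf4 and to Dusp6 in fold change. Egr1, Egr2, Egr3, Dcn, Lum and Lin28a were named after their values were seen. Alternatives were other pseudocounts, filters, folds and scalings, single columns or lines, and a fit with each column as its own library.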

Additional observations from a re-analysis of the deposited data

Results flagged for a closer look

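Of 97 genes tested in the FGF-ERK set and the pathway lists, the lines lay on opposite sides of the control for 27, with 17 of them lower in KD4 and higher in KD9. The 16 that fall under the rule for named genes or are named in the text are given here. With 1 sample for each line and a control that both share, the difference was not tested. The share of all genes with the lines on opposite sides was not counted, so these counts are a description only. The values are log2 fold changes of KD4 minus those of KD9. Among the 10 FGF-ERK genes, Fgfr2 (0.52) and Dusp4 (0.72) were higher than the control in KD4 and lower in KD9, and Spry1 (-0.29) was the reverse. Gab1 (0.54), Spred1 (0.37) and Spred2 (0.38), which encode an adaptor and inhibitors of RAF activation, were also higher than the control in KD4 and lower in KD9. The other 10 of the 16 were lower than the control in KD4 and higher in KD9. They were the ligand genes Fgf7 (-1.24) and Fgf10 (-0.85), the syndecan gene Sdc1 (-0.87), the MEK1 gene Map2k1 (-0.58), the ERK1 gene Mapk3 (-0.25), Errfi1 (-1.35) and the target genes Egr1 (-1.68), Fos (-1.20), Ier2 (-0.24) and Ier3 (-1.38). In 14 of the 16 every column lay on the side of its line, the exceptions being Spry1 and Ier2. These sides are those in TPM. After the ESC rescaling, Fgfr2, Dusp4, Gab1, Spred1 and Spred2 were below the control in both lines. Gab1, for example, was then at -0.39 in KD4 and -0.23 in KD9. The rest of the 16 kept opposite sides on that scale.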

How the results depend on the processing

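No paired analysis was possible because KD4 and KD9 are separate lines and the 1 control sample shares a replicate number with only 1 of them. Rescaling by the ESC markers left 0 of the 10 genes more than 2-fold higher in KD4 and moved their median there to -0.36. With a fold of 1.5, 3 of the 10 were higher in KD4 and 1 was lower in KD9. Genes more than 2-fold higher and lower in both lines numbered 182 and 321 with a pseudocount of 1, 1123 and 1619 without a filter, 95 and 138 at a mean of at least 5 TPM, and 992 and 1427 at a fold of 1.5. The higher ones numbered 325 with a pseudocount of 0.5 and 322 with the ESC rescaling. With 1 line left out, the counts ranged over 839 to 1034 higher and 1087 to 1896 lower. The limma fit called 70 genes higher and 77 lower after the ESC rescaling, while taking every column for a separate library gave 781 higher and 1384 lower calls; the cause was not tested. Over the lines together, the log2 fold change changed sign for Fgfr2 (0.183) and Dusp4 (0.0230) without KD9, for Spry1 (0.0105) without KD4, and for Etv4 (-0.0023) with the ESC rescaling. Of 160 alternatives for the values of single genes of the 10 by line, 149 stayed within 1 SD, 11 moved further, and 5 changed sign. The SD was that of a gene's fold changes in KD4 and KD9 alone, so it was widest where the lines differed most. The other filters could not change these values, since all 10 genes passed them. The ESC rescaling moved all 10 values in KD4 by more than 1 SD. Leaving out 1 line leaves limma no residual degrees of freedom, so that fit was not run. Unknown depth limits the precision most for genes near 1 TPM.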

Other observations

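Fgf4 lies beside other FGF genes on chromosome 7, and its neighbours were looked at after their values were seen. Fgf15, at 144896532-144900953 on GRCm38.p6, was at -1.78 in KD4 and -1.79 in KD9 on the log2 scale relative to the control. Fgf3, at 144838612-144843348 on the other side of Fgf4, had -0.68 in KD4 and -1.17 in KD9, at no more than 1.68 TPM in any column. Ccnd1, the cyclin D1 gene at 144929931-144939831, was at 193 and 198 TPM in KD4 and 228 and 229 TPM in KD9, against 137 TPM in the control. Ano1, at 144588549-144752026, was at 1.17 and 1.503 TPM in KD4 and 1.18 and 1.34 TPM in KD9, against 0.802 TPM in the control. Of the further neighbours, Fadd was at 0.05 in KD4 and -0.03 in KD9 on the log2 scale, and Ppfia1 at -0.05 in KD4 and -0.14 in KD9. Fgf4, Ccnd1 and Ano1 were thus above the control in all 4 knockdown columns while the FGF genes Fgf3 and Fgf15 on either side of Fgf4 were below it. After the ESC rescaling Ccnd1 was at -0.15 in KD4 and 0.78 in KD9, and Ano1 at 0.06 in KD4 and 0.62 in KD9.

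The remaining marker lists were as follows. The summed level of 8 trophectoderm markers was 117 and 115 TPM in KD4 and 100 and 97.5 TPM in KD9, against 132 TPM in the control. The summed level of 7 markers of 2-cell-like cells, a rare state in ESC cultures, was 1.71 and 1.12 TPM in KD4 and 2.96 and 2.94 TPM in KD9, against 13.4 TPM in the control. The 6 tested were all more than 2-fold lower in both lines, beside 3.2% of all genes. That count is no independent result. Zscan4c, Zscan4f, Tcstv3, Gm8994 and Usp17le, the last a knockdown target, passed the filter on low values only through the control.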
